A study of Drosophila melanogaster with 2 samples.

Results

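The X chromosome of Kc167 cells carried 384 of the 2126 contact domains in the deposited list, every domain that the list places on X. A contact domain (TAD) is a stretch of chromatin whose parts touch each other in the nucleus more often than they touch the neighbouring sequence. Kc167 is an established line from Drosophila melanogaster embryos. It was assayed here by tethered Hi-C, a method that cuts fixed chromatin, ligates it while it is held on beads and sequences the joined ends. The series holds 2 samples of this 1 group, untreated beyond fixation with 1% paraformaldehyde, called biological replicates by the series' design text. Domains and loops were deposited as 1 list each for the combined samples, so no value below has a spread between samples, no test between samples was possible, and the sequencing depth behind each domain is unknown.

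In flies, domains often alternate between active, gene-dense chromatin and longer silent or Polycomb-bound stretches, and the short stretches between domains are rich in active promoters and insulator proteins. The fly X is a single-armed chromosome for most purposes: its low coordinates lie at the telomere and its high coordinates run into the heterochromatin around the centromere. In males a dosage compensation complex binds it and raises its transcription, but Kc cells are of female type and are not known to use that complex. Loops are pairs of anchors that meet more often than their surroundings, and in flies they are fewer than in mammals, and many join Polycomb-bound sites. Genes are not named here, because the gene table at hand belongs to a later genome build than dm3, the build of these coordinates.

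Most X domains were short, yet the long ones held much of the sequence. Lengths ran from 6 to 575 kb, with a median of 22.5 kb and quartiles of 13 and 48.5 kb. The 58 domains up to 10 kb were 15.1% of the list and 2.75% of all domain length. Domains over 10 to 20 kb numbered 119 and those over 20 to 50 kb 116. A further 46 domains measured over 50 to 100 kb. The 45 domains over 100 kb were 11.7% of the list and 47.7% of the length, and the 50 longest domains alone made up at least 50% of it. On the 4 large autosome arms (2L, 2R, 3L and 3R, 1721 domains) domains over 100 kb were 10.9% of the list and 48.6% of the length, and the median was 21 kb. The X values lay inside the range of those 4 arms, whose medians were 19 to 25 kb, and so did the X shares of domains over 100 kb.

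The longest X domain closed the arm at its centromere end, at X 21845001 to 22420000 (575 kb). The next was less long by a small margin and lay near the middle, at 11925001 to 12465000 (540 kb). The others among the 10 longest were at 7220001 to 7565000 (345 kb), 12655001 to 12980000 (325 kb), 14150001 to 14470000 (320 kb), 5840001 to 6110000 (270 kb), 18785001 to 19035000 (250 kb), 20930001 to 21180000 (250 kb), 2235001 to 2475000 (240 kb) and 4980001 to 5195000 (215 kb). These 10 were spread over the arm, and 4 of them held a whole loop, against 12 of all 45 X domains over 100 kb (26.7%) and 16 of all 384 (4.17%). Neighbouring pairs of domains over 100 kb occurred in 3 places: 4850001 to 5195000, 14150001 to 14700000 and 21271001 to 22420000. At the other extreme, 2 domains measured 6 kb, at 14727001 to 14733000 and 19156001 to 19162000, and 8 measured 7 kb. The first of those by position were at 5610501 to 5617500, 6149001 to 6156000 and 6548501 to 6555500. Neighbouring domains up to 10 kb occurred in 7 places, 6 of them pairs and 1 a trio at 6149001 to 6181500.

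**Figure D1:**
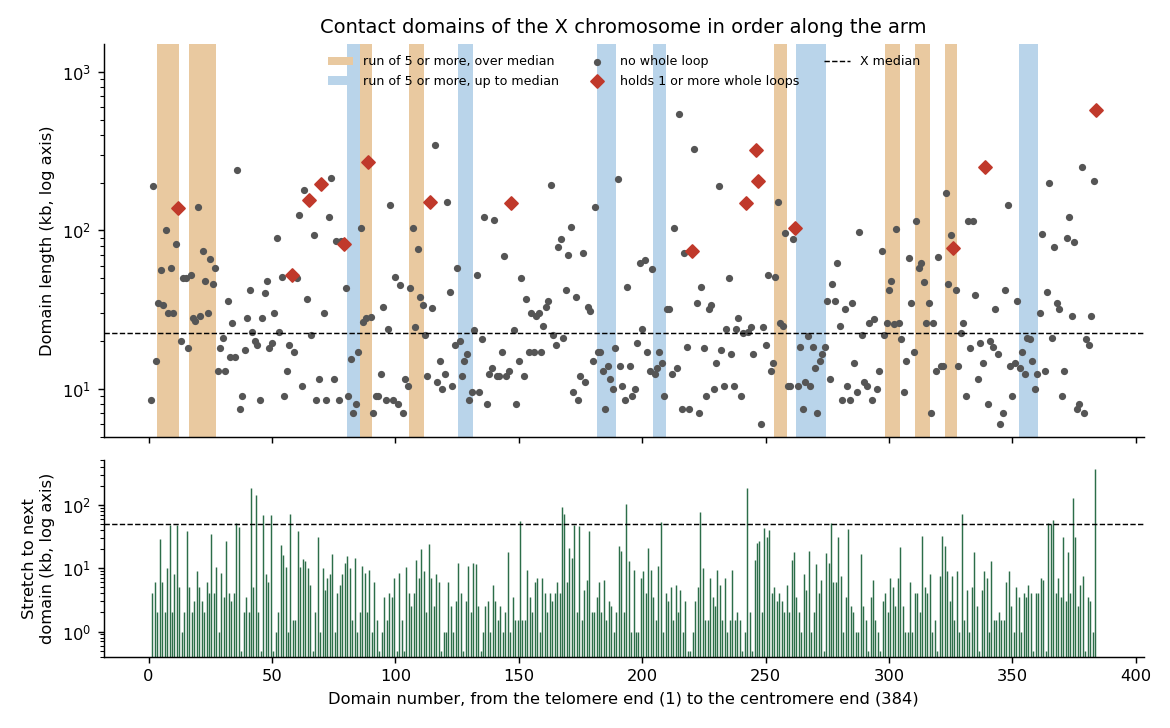
Length of each of the 384 X domains (upper panel, kb, log axis) and the stretch to the next domain (lower panel, kb, log axis, dashed line at 50 kb), in order from the telomere end. Shaded bands mark runs of 5 or more neighbours all over or all up to the median of 22.5 kb, and diamonds mark the 16 domains with a whole loop, none shorter than 52 kb.

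Domains of all lengths were mixed along the arm. Of 383 neighbouring pairs, 204 lay on the same side of the median length and 179 on opposite sides. The 384 domains formed 180 runs in which all neighbours lay on the same side of the median. The rank correlation of each domain's length with the next was 0.0077 on X (Spearman, across 383 neighbouring pairs, a description without a test). Runs of 5 or more held 97 domains, or 25.3%. By the same rule, each arm split at its own median, the shares were 13.7% on 2L, 13.3% on 2R, 31% on 3L and 16.2% on 3R. X thus lay between these arms, and no test of the difference was run.

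The longest runs of domains over the median stood at the telomere end. A run of 11 domains from 1294001 to 1964000 had lengths of 27 to 140 kb, with 89.3% of its 670 kb covered by domains. A run of 9 from 388001 to 1104000 had lengths of 30 to 138 kb, and 78.6% of its 716 kb was covered. Between these runs lay only 4 domains. A further 3 runs of 6 followed at 6592501 to 6959000, 16706001 to 16999000 and 17200001 to 17589000. The runs of domains up to the median took up less sequence. The longest had 12 domains of 7 to 21.5 kb within 228 kb, from 15594501 to 15822500, with 73.9% covered. Runs of 8 lay at 10639501 to 10770000, with lengths of 7.5 to 18 kb, and at 19459501 to 19604000, with lengths of 10 to 21 kb. A run of 6 lay at 7933001 to 8035000. In all, 8 runs of 5 or more long domains filled 3734.5 kb, and 6 loops lay within their stretches, 1 of them between different domains. The 6 such runs of short domains filled 822.5 kb, and no loop lay within them. X as a whole held 12.9 loops per 10 Mb, a rate at which few loops would fall in 822.5 kb. The loop counts of the 2 kinds of run were not tested against each other. No X domain up to 50 kb held a whole loop. Domains covered 78.6 to 96.7% of the long runs and 49.6 to 84.4% of the short ones.

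Divided into 11 windows of 2 Mb, the last one extended to the arm's end at 22.42 Mb, X was uneven. The first window had 29 domains with the highest median length, 46 kb, and quartiles of 28 and 58 kb, and only 1 of its domains was up to 10 kb. The second window had the lowest coverage by domains, 59%. Coverage was highest in window 4 (6 to 8 Mb), at 89.8%, and almost the same in window 3, at 89%. The lowest median length, 14.75 kb, was in window 6 (10 to 12 Mb), which nonetheless held 4 domains over 100 kb. Domains were densest in window 9 (16 to 18 Mb), with 46, or 23 per Mb. They were sparsest in window 11, with 19, or 7.85 per Mb, and there 69.7% of the sequence was covered. On the large autosome arms, 46 windows made the same way had median lengths of 15.25 to 51.5 kb and coverages of 45.8 to 93.4%. The first X window stood near the top of that range for length, and window 6 lay just under its lower end.

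**Figure D2:**
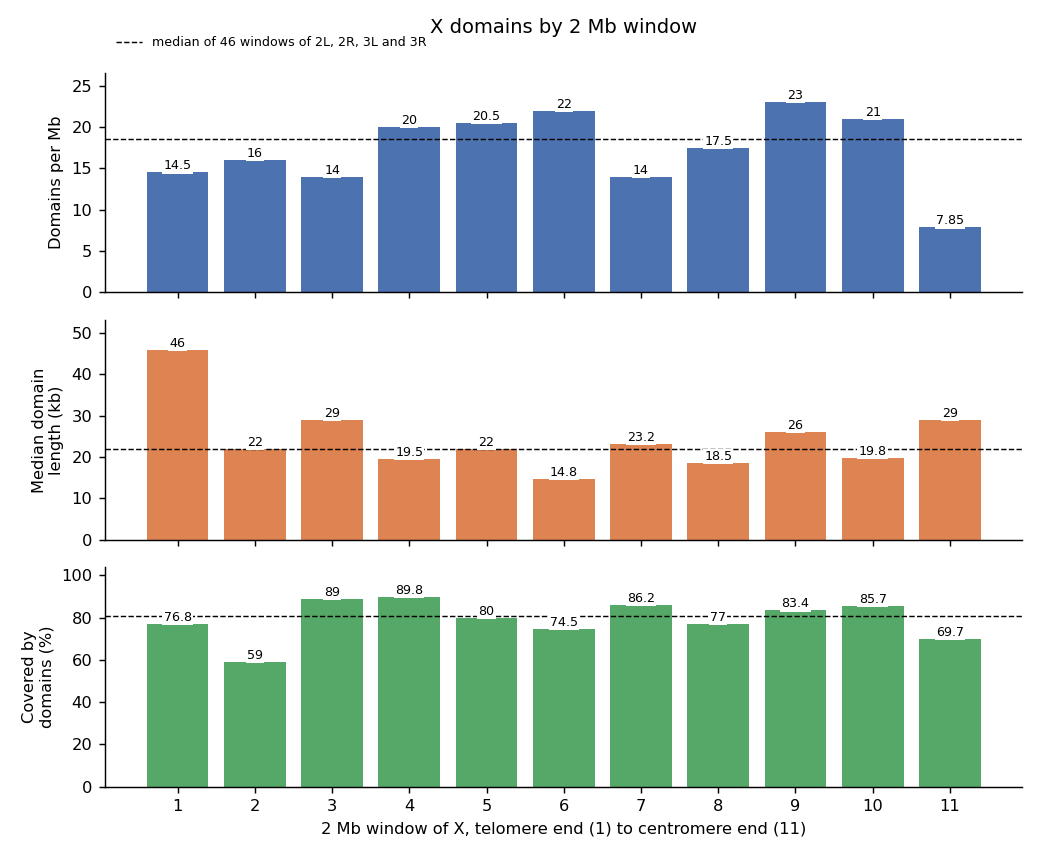
Domains per Mb, median domain length (kb) and share of sequence covered by domains (%) in the 11 windows of X, from the telomere end. Bars start at 0 and the dashed line is the median of the 46 autosome windows. Window 1 has the longest typical domain (46 kb), window 2 the lowest coverage (59%) and window 11 the fewest domains per Mb (7.85).

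The space between X domains was mostly narrow. The 383 stretches between neighbours had a median of 4 kb and quartiles of 2 and 9 kb, and 130 of them, 33.9%, were 2 kb or less. On the large autosome arms the median was 3.5 kb and 37.9% were 2 kb or less. No X domains touched. The smallest stretch, 0.5 kb, is 1 step of the grid on which domain ends lie, and occurred 22 times. Stretches differed with the domains beside them. Between domains that were both up to the median length the median stretch was 2.5 kb (n = 103), between one of each 4 kb (n = 179) and between domains both over the median 6 kb (n = 101). Longer domains more often had ends on a coarser grid, and the part of the grid in this difference was not tested.

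A few wide stretches made up much of the sequence outside domains. The 20 stretches over 50 kb, 5.22% of all, summed to 2.009 Mb, or 44.2% of the space between X domains. The shares on the large autosome arms were 4.19% of stretches and 39% of the space. The widest on X, 369 kb at 21476001 to 21845000, lay between the 205 kb domain that ended there and the last, 575 kb domain of the arm. The next were 186 kb at 2632001 to 2818000, 182 kb at 13888001 to 14070000, 142 kb at 2866001 to 3008000 and 129 kb at 20661001 to 20790000. Those of 104 kb at 11058001 to 11162000, 93 kb at 9670001 to 9763000 and 78 kb at 13030001 to 13108000 completed the 8 widest. Window 2 (2 to 4 Mb) held 6 of the 20, summing to 590 kb, and window 11 held 4, summing to 607 kb. Windows 1, 3, 4 and 9 held none. The first domain began at 162501, so 162.5 kb at the telomere tip lay outside any domain. Whether reads could be placed uniquely in these stretches was not tested.

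Each domain carries 5 scores of the authors, whose scales the files do not state. The one named score, called the corner score here, had a median of 1.32 on X with quartiles of 1.117 and 1.53. On the large autosome arms the median was 1.30, with quartiles of 1.09 and 1.5. Domains up to 10 kb had the lowest median corner score on X, 1.07, and those over 100 kb the highest, 1.53. Across the 384 domains the rank correlation of corner score with length was 0.34, against 0.46 on the large autosome arms (a description across domains of the same map, which share its depth). The correlation with upSign was 0.79 and with loSign 0.79, and upSign and loSign correlated with each other at 0.64.

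The highest corner scores on X did not belong to the longest domains. They were 1.89 at 16836001 to 16861500 (25.5 kb), 1.89 at 5660001 to 5764000 (104 kb), 1.88 at 9254001 to 9446000 (192 kb), 1.87 at 19760001 to 19801000 (41 kb) and 1.87 at 12553001 to 12571500 (18.5 kb). None of these 5 domains held a loop anchor, but 368 of the 384 X domains held no whole loop either. The lowest were 0.261 at 6434001 to 6485000 (51 kb), 0.394 at 1592001 to 1666000 (74 kb), 0.572 at 11515501 to 11572500 (57 kb), 0.687 at 9856001 to 9898000 (42 kb) and 0.691 at 6925001 to 6959000 (34 kb). All 5 were longer than the median domain. By window, the median corner score ran from 1.123 in window 11 to 1.42 in window 7.

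The scores named uVarScore and lVarScore, were higher on X than on each large autosome arm. The median uVarScore was 0.0519 on X, against 0.0477 on 2L, 0.0438 on 2R, 0.0410 on 3L and 0.0432 on 3R. The median lVarScore was 0.0519 on X, against 0.0446 on 2L, 0.0437 on 2R, 0.0415 on 3L and 0.0429 on 3R. Relative to those arms pooled, the X median was 1.20 times as high for either score. Of the 384 X domains, 64.8% exceeded the autosome median for uVarScore and 64.1% did for lVarScore. Chromosome 4, with 21 domains, had medians of 0.0525 and 0.0516, close to those of X. With 1 pooled list there is no error on these differences between arms, and no test was made of them. How many copies of X the cells carried and how deeply it was read were not measured, and their part in the difference was not tested.

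The difference was present in domains of most sizes. For uVarScore the medians on X and on the large autosome arms were 0.0463 and 0.0353 up to 10 kb, 0.0545 and 0.0444 over 10 to 20 kb, and 0.0489 and 0.0440 over 20 to 50 kb. Of the single arms, 2L came closest to X in these classes, with 0.0442, 0.0486 and 0.0466, so the difference from 2L was smaller. It was widest for domains over 50 to 100 kb, with 0.0682 on X and 0.0472 on the large autosome arms. Over 100 kb the medians were 0.0481 on X and 0.0484 on the large autosome arms, so the longest domains did not share the difference. In that class 2L (0.0557) and 2R (0.0499) lay above X, and 3L (0.0426) and 3R (0.0443) below it. For lVarScore the difference was likewise widest over 50 to 100 kb and not seen over 100 kb, with 0.0654 on X and 0.0458 on the autosome arms over 50 to 100 kb, and 0.0444 and 0.0471 over 100 kb.

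**Figure D3:**
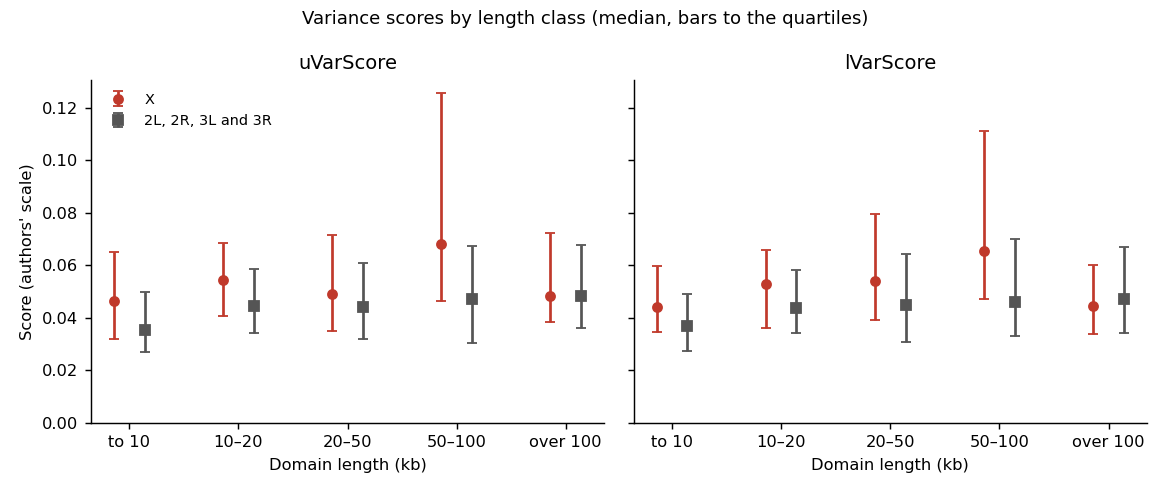
Median uVarScore (left) and lVarScore (right) on the authors' scale by length class of the domain, for X (circles) and the 4 large autosome arms (squares), with bars to the quartiles of the domains. The X medians are the higher ones up to 100 kb, most of all at 50 to 100 kb (uVarScore 0.0682 on X and 0.0472 on the autosome arms), and not over 100 kb.

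Along X, the window medians of the variance scores were lowest towards the centromere end, in windows 9 to 11 for uVarScore and in windows 10 and 11 for lVarScore. This holds for medians only, since single domains with high scores lay there too. The domain at 21271001 to 21476000 in window 11 had rank 3 on X for uVarScore (0.358) and rank 5 for lVarScore (0.268). The median uVarScore was 0.0390 to 0.0445 in windows 9 to 11 and 0.0478 to 0.0631 in windows 1 to 8. The median uVarScore exceeded the autosome median of 0.0434 in 10 of 11 windows, all but window 9, where it was 0.0390. Its highest value was 0.0631 in window 7. The median lVarScore exceeded the autosome median of 0.0432 in 9 of 11 windows, the 2 exceptions being window 10 with 0.0424 and window 11 with 0.0409. Of the 46 autosome windows, 7 reached the X median for uVarScore and 4 did for lVarScore. Leaving out any single X window kept the ratio to the autosome arms between 1.17 and 1.23 for uVarScore, so no single window carried it.

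Domains with both variance scores in the upper tail were a larger share of X than of the large autosome arms. In 16 of 384 X domains, 4.17%, both scores exceeded 0.1, a bound set after the values were seen, which divides a continuous range and has members and other domains close to it on either side. On the large autosome arms 27 of 1721 did, 1.57%, with 0.983 to 1.92% on single arms. With the bound at 0.075 the shares were 9.38% on X and 4.47% on the large autosome arms, with 3.19 to 7.14% on single arms. At 0.15 they were 2.08 and 1.05%, with 0.491 to 1.37% on single arms. The highest single arm at either bound was 2L. The 16 domains were 33 to 205 kb long, with a median of 67.5 kb, and every one was longer than the X median. Their median corner score was 0.888, against 1.33 in the other 368, and 4 of the 5 lowest corner scores of the arm were among them, while 6 of the 16 scored over 1. With the bound at 0.075 that direction turned, with a median corner score of 1.35 in 36 domains and 1.32 in the rest. Over all 384 domains the corner score had a rank correlation of 0.20 with uVarScore and 0.20 with lVarScore. Of the 16, 1 held a whole loop (6.25%), against 16 of all 384 X domains (4.17%). These shares are not matched for length, since 13 of the 16 were over 50 kb. No X domain up to 50 kb held a whole loop, while 8.70% of those over 50 to 100 kb and 26.7% of those over 100 kb did. The 16 high-variance domains differ from the other domains by the choice of bound, and no test was run.

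The most extreme of the set was the domain at 6434001 to 6485000, which had the lowest corner score of X and a uVarScore of 0.391. The domain at 11515501 to 11572500 had the highest lVarScore, 0.433, with a uVarScore of 0.353. High pairs also occurred at 3514001 to 3564500 (uVarScore 0.365 and lVarScore 0.335) and at 21271001 to 21476000 (0.358 and 0.268), the 205 kb domain before the widest stretch of the arm. The domain at 19852001 to 20051000 (199 kb, 0.222 and 0.214) also bordered wide stretches, with 51 kb before it and 50.5 kb after it.

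The bound did not use the grid of the domain ends. Of the 16, 13 (81.2%) had ends that fit only a 0.5 or 1 kb grid, against 247 of all 384 X domains (64.3%), and 10 of the 16 had such ends and were longer than 50 kb. On the large autosome arms 21 of the 27 (77.8%) had such fine ends, against 1183 of all 1721 domains there (68.7%). Fine ends went with short domains: on X, domains on the 0.5 kb grid had a median length of 12.5 kb (n = 144), those on the 1 kb grid 23 kb (n = 103), those on the 2 kb grid 50 kb (n = 105) and those on a 5 or 10 kb grid 152.5 kb (n = 32). Among X domains over 50 kb, 10 of 17 with ends on the 0.5 or 1 kb grid had both variance scores over 0.1, or 58.8%, against 3 of 74 with coarser ends, or 4.05%. On the large autosome arms the counts were 9 of 61 (14.8%) and 5 of 301 (1.66%). The grid is a property of how domains were called, and whether it or the chromatin sets these scores was not tested.

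**Figure D4:**
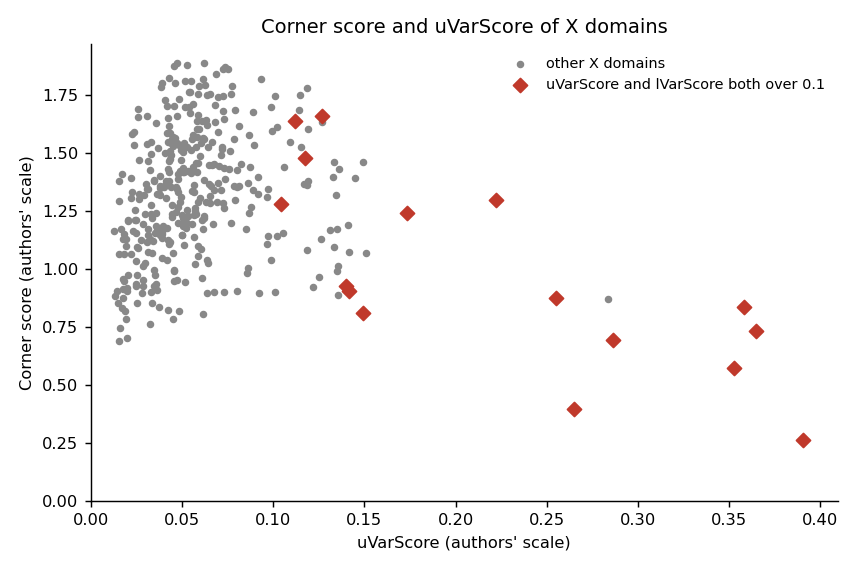
Corner score against uVarScore for the 384 X domains, both on the authors' scale. Diamonds are the 16 domains with uVarScore and lVarScore both over 0.1, among them the lowest corner score of the arm (0.261), and grey points are the other 368.

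The X held 29 of the deposited loops, or 7.55 per 100 domains, while the large autosome arms held 88, or 5.11 per 100 domains. Single arms had 6.59 on 2L, 3.16 on 2R, 6.39 on 3L and 4.73 on 3R, and chromosome 4 had 14.3 with 3 loops. The difference between arms was not tested. Of the 29, 19 lay inside a single domain (65.5%, exact Clopper-Pearson 95% interval 45.7 to 82.1%, for counting error only). With anchors widened by 5 kb, 12 did (41.4%). The share on the large autosome arms was 64.8%. Long domains carried them. All 19 lay in 16 domains of 52 to 575 kb, with a median of 149 kb, against a median of 21 kb in the 368 X domains without one. Of X domains over 100 kb, 12 of 45 held a loop (26.7%), of those over 50 to 100 kb 4 of 46 (8.70%), and of those up to 50 kb none. The length of a domain limits the loop it can hold, so the link with length is partly built in. Over 100 kb, domains with a loop had a median corner score of 1.55 and those without 1.52. Over 50 to 100 kb the medians were 1.64 (n = 4) and 1.30 (n = 42).

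Inside their domains the X loops were placed in several ways. They spanned a median of 39.3% of the domain, with quartiles of 20.5 and 49.8%. In 9 of the 19, each anchor lay over 20 kb from both ends. An example is the loop of 59.25 kb in the 575 kb domain, whose anchors at 21987001 to 21988501 and 22046501 to 22047501 lay 142.75 kb behind the start and 373 kb before the end. In 6 others, 1 anchor lay within 5 kb of a domain end and the other further in. The loop that joined 8615501 to 8617001 with 8730501 to 8732501 began 0.251 kb from the start of the domain 8616001 to 8764000 and crossed 77.9% of it. A second, shorter loop, that joined 8652001 to 8652501 with 8700501 to 8701001, lay within the span of the first in the same domain. The loop that joined 15488001 to 15489001 with 15547001 to 15548001 likewise began 0.501 kb from the start of the domain 15488001 to 15591000.

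The most loops in an X domain were 3. The domain 18135501 to 18212500 (77 kb) held 3 loops between 3 places. One joined 18137001 to 18138001 with 18206001 to 18207501 over 69.25 kb, close to the start and the end of the domain. The others joined these places to another near the middle, at 18170001 to 18173001, over 32.5 and 35.5 kb. This domain was also among the 16 with high variance scores, with a uVarScore of 0.112, a lVarScore of 0.124 and a corner score of 1.64.

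Loops that framed a domain were few. In 4 of 29 (13.8%, exact interval 3.89 to 31.7%), the midpoints of the 2 anchors were at most 10 kb away from opposite ends of a domain, and on the large autosome arms the share was 13.6%. The first is the 69.25 kb loop just described. In the other 3, both anchors lay just outside the domain they framed. The domain 16046001 to 16108000 (62 kb) had anchors 3.5 kb before and 3 kb behind it, 17200001 to 17314000 (114 kb) had them 0.499 and 2.50 kb outside, and 20506001 to 20628000 (122 kb) 2.50 kb outside on either side. The anchors of these loops were at 16041501 to 16043501 and 16110001 to 16112001, 17199001 to 17200001 and 17316001 to 17317001, and 20503001 to 20504001 and 20630001 to 20631001.

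Another 3 loops lay wholly in wide stretches without domains. They spanned 52.5 kb (2867001 to 2869501 with 2919501 to 2922001), 62.5 kb (11064501 to 11065501 with 11127001 to 11128001) and 10 kb (13908001 to 13910001 with 13918001 to 13920001). The stretches they lay in measured 142, 104 and 182 kb and were among the 8 widest of X. Loops were thus called in 3 of the 20 wide stretches. The other wide stretches held no loop anchor, and why no domain was listed in any of them was not tested. With the 3 corner loops that lay outside their domain, 6 X loops had both anchors between domains, against 5 of 88 on the large autosome arms. Loops with 1 anchor between domains numbered 1 on X, which joined 4401001 to 4402001 with 4423001 to 4425001, and 19 on the large autosome arms. These counts were not tested, and a shift of an anchor by a few kb moves a corner loop from one kind to another.

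The remaining 3 loops joined different domains. The loop of 166 kb that joined 737001 to 740001 with 903001 to 906001 crossed 4 domain ends within the run of 9 long domains at the telomere end. Its second anchor overlapped the first anchor of the longest X loop, 900001 to 908001, which reached 15954001 to 15960001, 15053 kb away in the domain 15952001 to 15998000 that follows a stretch of 52.5 kb. The other loop over 1 Mb joined 13240001 to 13255001, in a 34 kb domain, with 19225001 to 19245001, in a 145 kb domain, over 5987.5 kb. Over all 58 loop ends, the median distance to the nearest domain end was 23.25 kb, with 15 within 5 kb.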

How the data were processed

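Tethered Hi-C libraries of 2 Kc167 samples are represented by 2 deposited lists, which by their file names pool both samples. BWA and Juicer were used on dm3 (BDGP5), per the submitters' processing notes. The sources used here do not give versions, the callers of domains and loops, filters or depth. The deposited score values per domain (score, uVarScore, lVarScore, upSign and loSign) are the authors' own, on unstated scales.

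Positions were used as listed, with 1 added to domain starts. Length is end minus start, and a stretch between domains is the next start minus the end before. Arms were taken from 0 to the largest listed position. Windows of 2 Mb took domains by their midpoints, and the rest of an arm after its last full window was joined to that window. An anchor was placed by its midpoint. Runs were split at the arm's median length. Domain grids are the coarsest of 10, 5, 2, 1 and 0.5 kb that hold both ends.

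All comparisons describe 1 pooled map, without tests. Share intervals are exact (95%) and take the counted units as independent. The geometry code was tested on simulated data. Members, lists and rules were chosen with earlier results of these data known. The regions named are the 10 longest and 5 shortest domains, the 5 highest and lowest corner scores, the 8 widest stretches, the 4 longest runs of each kind with ties, windows at the extremes of a measure, loops over 1 Mb or at corners, domains with 2 or more whole loops, and loops sharing an anchor. The domains with high variance scores, and other loops given as examples, were chosen after their values were seen. Python 3.11.15, pandas 2.3.3, NumPy 2.4.6, SciPy 1.17.1 and matplotlib 3.10.9 were used.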

Additional observations from a re-analysis of the deposited data

How the results depend on the processing

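No paired analysis was possible because each list pools both samples, and no sample could be left out. Of 23 alternatives to the 7 main X values, 14 stayed within the exact interval of the value reported and 9 did not. The intervals take their units as independent, which positions within 1 domain and domains within 1 run are not. The coverage interval, 78.6 to 79.4%, is therefore too narrow, and 3 of the 9 were set against it. With the upper 50% of X domains by corner score, the median length was 30 kb, the coverage 53.5% and the median stretch between domains 14 kb, fewer domains being used by construction. With both ends off the 5 kb grid the median length was 19 kb. Coverage was 80.1% without the first and last 2 Mb and 79.6% from the first to the last domain. Runs of at least 4 held 33.6% of X domains and runs of at least 6 held 18.8%. Loops inside a domain came to 41.4% when anchors were widened by 5 kb. Removing touching domains changed nothing, as there were none. For the X to autosome ratio of variance scores, with alternatives chosen after seeing the data, 26 of 29 for uVarScore and 25 of 29 for lVarScore stayed above 1 and within 1.5 times the main ratio. Over 100 kb the ratio turned to 0.996 for uVarScore and 0.943 for lVarScore, and to 0.952 for lVarScore over 100 kb on the 2 kb or coarser grid. It moved to 2.53 and 2.31 over 50 to 100 kb, and to 3.09 and 3.03 over 100 kb (3 X domains), on the 0.5 or 1 kb grid. The causes were not tested. Depth could not be assessed.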
